A study of Mus musculus with 2 samples.

Results

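Inflammatory monocytes were examined in the postischemic kidney on day 14 after unilateral ischemia-reperfusion injury, by single-cell RNA sequencing of 1 Cre- mouse and 1 PHDTiEC mouse. A kept barcode counted as a monocyte when it carried at least 4 UMIs (unique molecular identifiers, each marking 1 captured RNA molecule) of *Ccr2*, *Ly6c2*, *Plac8* and *Chil3* together and at least 5 UMIs of *Lyz2*. Barcodes rich in the macrophage genes *C1qa*, *C1qb* and *C1qc* (10 or more per 10000 UMIs), rich in the neutrophil genes *S100a8* and *S100a9* (100 or more per 10000), with 2 or more UMIs of the injury macrophage genes *Gpnmb*, *Arg1* and *Mmp12*, or with any UMI of *Cd3e* or *Flt3* were left out. Of 17701 kept barcodes, 634 met the rule, 305 in the Cre- library and 329 in the PHDTiEC library. The levels of these genes chose the barcodes and are therefore given as a description: the barcodes were selected on the summed UMIs named here.

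The PHDTiEC mouse carried Cdh5-CreERT2, a tamoxifen-dependent Cre under an endothelial promoter, with floxed alleles of *Phd1*, *Phd2* and *Phd3*, the oxygen-sensing prolyl hydroxylases listed as *Egln2*, *Egln1* and *Egln3*. The control mouse is labelled Cre- only. Per the study's methods the mice were male and 8 to 10 weeks old, the left renal pedicle was clamped for 25 minutes, and both genotypes received 4 injections of 3 mg tamoxifen, given every other day from day 1 after the injury. The recombination was thus aimed at endothelial cells and not at monocytes, and each genotype is represented by 1 library, from 1 mouse as the study states its sample number. Differences between genotypes, mice, dissociations and libraries cannot be told apart here, and no test between the libraries is possible. All intervals below are exact 95% intervals that cover counting error only.

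Monocytes are short-lived blood leukocytes made in the bone marrow. In the mouse, classical monocytes carry high Ly6C and the chemokine receptor CCR2, leave the marrow and enter injured tissue along gradients of CCL2, where they can become macrophages or antigen-presenting cells. Patrolling monocytes carry little Ly6C and CCR2, depend on the transcription factor NR4A1, carry CX3CR1, and crawl along the inner wall of blood vessels. After renal ischemia, infiltrating classical monocytes are a main source of kidney macrophages.

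The Cre- library held 136004367 UMIs and the PHDTiEC library 146758812 UMIs, with medians of 7414.5 and 7815 UMIs per kept barcode. The median mitochondrial share of kept barcodes was 4.12% and 3.06%. Both libraries listed 27 kept barcodes with the same barcode sequence, 3 of them among the Cre- monocytes of the rule and 1 among those of PHDTiEC.

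The rule took barcodes of 2 kinds, which differed in content and depth. A panel of 6 leukocyte genes (*Ptprc*, *Tyrobp*, *Fcer1g*, *Coro1a*, *Laptm5*, *Cd52*) made up less than 10 per 10000 UMIs in 120 Cre- and 156 PHDTiEC barcodes and at least 100 per 10000 in 149 and 138, with few barcodes between. At a limit of 50 per 10000, 168 Cre- and 163 PHDTiEC barcodes were leukocyte-rich, with median depths of 6050 and 6084 UMIs. The other 137 and 166 were leukocyte-poor, with median depths of 55835 and 56948 UMIs and a median panel level of 0.826 and 0.901 per 10000. In the leukocyte-poor barcodes *Lyz2* had a median of 1.43 and 1.40 per 10000 UMIs, against 121 and 144 in the leukocyte-rich ones.

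The leukocyte-poor barcodes met the fixed limits at great depth and at low levels of *Lyz2* per 10000 UMIs, and were led by epithelial genes. The keratin gene *Krt8* stood at 925 CPM (a gene's UMIs per 1000000 UMIs of the group) in Cre- and 1095 CPM in PHDTiEC, against 23.0 and 23.7 CPM in leukocyte-rich barcodes. *Atp6v1g3*, a subunit of the proton pump of intercalated cells, stood at 932 and 1014 CPM against 8.63 and 6.63 CPM, and *Hsd11b2*, which inactivates cortisol-like steroids in the distal nephron, at 966 and 1229 CPM against 11.5 and 18.0 CPM. An epithelial panel (*Epcam*, *Cdh16*, *Krt8*, *Krt18*, *Cdh1*, *Cldn4*) was chosen after the values had been seen, so its count is a description. It reached 10 per 10000 UMIs in 121 of 137 Cre- and 148 of 166 PHDTiEC leukocyte-poor barcodes. The label of inflammatory monocyte thus did not match the content of these 303 barcodes, and the genes of the rule are described below in the 331 leukocyte-rich barcodes. Whether some of the deep barcodes held 2 cells was not tested.

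**Figure D1:**
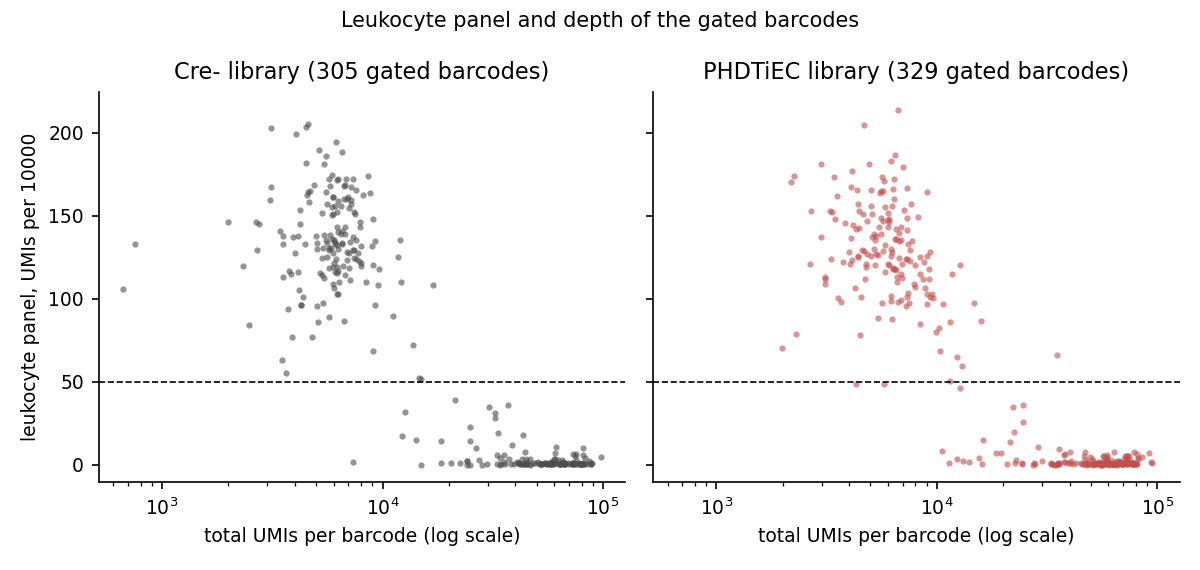
Each point is a barcode that met the monocyte rule, with its total UMIs on a log axis and its leukocyte panel in UMIs per 10000, for the Cre- library (305 barcodes) and the PHDTiEC library (329 barcodes). The points fall into a shallow group above the dashed limit of 50 per 10000 (168 and 163 barcodes) and a deep group near 0 (137 and 166 barcodes).

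The leukocyte-rich barcodes held 12.4% of all UMIs of the rule's barcodes in Cre- and 10.7% in PHDTiEC, but most of the monocyte transcripts. They carried 95.5% and 92.9% of the *Ly6c2* UMIs, 96.1% and 95.5% of *Chil3*, 88.3% and 91.3% of *Ccr2*, and 89.0% and 87.9% of *Lyz2*. *Plac8* was the exception among the genes of the rule, with 55.3% and 49.7%. The leukocyte-poor barcodes thus held a larger part of the *Plac8* UMIs than of the other genes. How far *Plac8* or depth let them meet the rule was not tested. For the chemokine gene *Cxcl2* the share was 35.7% and 31.6%, so that most *Cxcl2* UMIs of the rule's barcodes lay in the leukocyte-poor ones.

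Barcodes just inside and just outside the limits differed in kind from one limit to the next. With exactly 4 monocyte UMIs there were 21 Cre- and 16 PHDTiEC barcodes, and 24 and 20 otherwise fitting barcodes had 3. With 5 *Lyz2* UMIs there were 50 and 53 barcodes, of which 3 and 4 were leukocyte-rich, and 66 and 80 had 4. Between 8 and 10 C1q UMIs per 10000 there were 5 and 9 barcodes, with 4 and 2 between 10 and 12. Between 80 and 100 per 10000 of *S100a8* and *S100a9* there were 4 and 0, with 1 and 1 just above, and 48 and 61 barcodes had 1 injury macrophage UMI, with 12 and 14 at 2.

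The barcodes of the rule, leukocyte-poor ones included, took like shares of the libraries. All barcodes of the rule made up 3.60% (interval 3.22 to 4.02) of kept Cre- barcodes and 3.56% (3.19 to 3.96) of kept PHDTiEC barcodes. The leukocyte-rich ones made up 1.98% (1.70 to 2.30) and 1.77% (1.51 to 2.06). Among kept barcodes with at least 1 UMI of *Ptprc*, the gene of the leukocyte antigen CD45, the rule took 5.32% (4.68 to 6.03) in Cre- and 4.96% (4.37 to 5.61) in PHDTiEC. In each of these measures the intervals of the libraries overlapped.

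Within the leukocyte-rich barcodes, the genes of classical and of patrolling monocytes lay in different cells. The share of *Ace*, *Treml4*, *Adgre4* and *Spn* UMIs among those of these 4 genes and *Ccr2*, *Ly6c2* and *Chil3* was below 0.1 in 65 Cre- and 95 PHDTiEC barcodes and 0.9 or more in 53 and 29, with 12 and 7 between 0.4 and 0.6. Across cells *Ccr2* and *Ace*, the angiotensin-converting enzyme gene that patrolling monocytes carry, had a Spearman rho of -0.63 in each library (168 and 163 cells), while *Ly6c2* and *Chil3* had 0.60 and 0.56 and *Ace* and *Treml4* 0.69 and 0.69. These are descriptions over cells of 1 library each, which share its depth and its free RNA, and 3 of these genes were used by the rule. At a share of 0.5 the barcodes were divided into a Ccr2 side (91 Cre- and 122 PHDTiEC) and an Ace side (77 and 39). In PHDTiEC 2 barcodes had none of these UMIs and no side.

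**Figure D2:**
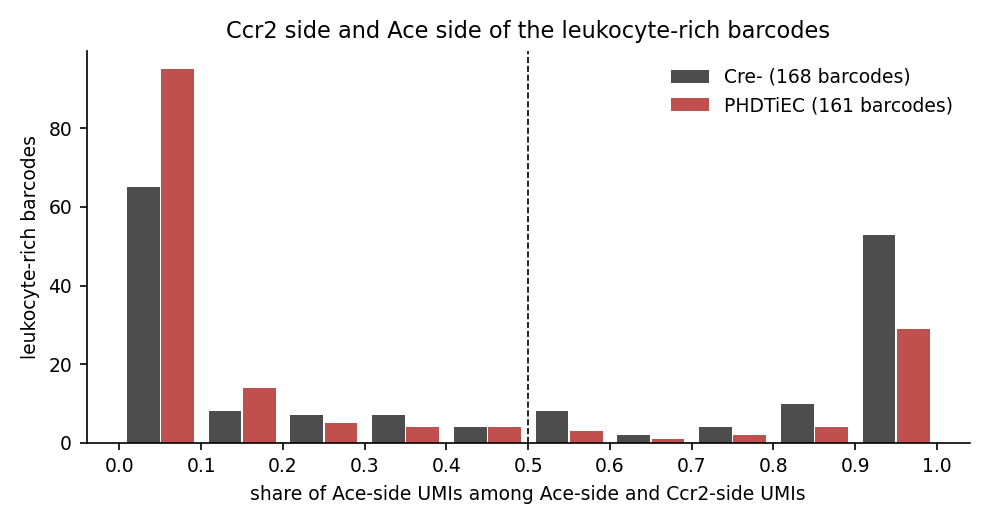
Histogram of the leukocyte-rich barcodes of each library by the share of *Ace*, *Treml4*, *Adgre4* and *Spn* UMIs among those and *Ccr2*, *Ly6c2* and *Chil3* UMIs. Both libraries pile up at the ends, with 65 Cre- and 95 PHDTiEC barcodes below 0.1 and 53 and 29 at 0.9 or more.

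The genes used to divide the sides carried through to others that were not used. *Cd300e*, an activating receptor of patrolling monocytes, stood at 187 CPM on the Ace side and 1.67 CPM on the Ccr2 side of the Cre- library, and at 378 and 6.87 CPM in PHDTiEC. *Nr4a1*, the transcription factor on which patrolling monocytes depend, stood at 1485 against 466 CPM in Cre- and 1502 against 434 CPM in PHDTiEC, and *Itgal*, the alpha chain of the integrin LFA-1, at 1206 against 247 and 1429 against 170.5 CPM. The blood clotting factor gene *F13a1* lay towards the Ccr2 side, with 359 CPM there against 15.8 CPM on the Ace side in Cre- and 388 CPM against 0 UMIs in PHDTiEC. *Fn1* (fibronectin) stood at 979 against 92.4 CPM and at 838 against 33.9 CPM. *Vcan*, which encodes the matrix proteoglycan versican, had 78 and 124 UMIs on the Ccr2 side and 0 in both libraries on the Ace side. The Ccr2 side thus carried the transcripts of classical monocytes and the Ace side those of patrolling monocytes, in both libraries.

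The balance of the sides differed between the libraries. The Ace side made up 45.8% (38.1 to 53.7) of leukocyte-rich Cre- barcodes and 23.9% (17.6 to 31.2) of those of PHDTiEC. As a share of kept barcodes it was 0.909% (0.718 to 1.14) and 0.422% (0.301 to 0.577), and the intervals did not overlap. Without the 24 of 77 and 6 of 39 barcodes that carried 3 or more UMIs of neutrophil markers, the shares were 0.626% (0.469 to 0.818) and 0.357% (0.246 to 0.502), and the intervals overlapped. The Ccr2 side made up 1.07% (0.866 to 1.32) of kept Cre- barcodes and 1.32% (1.10 to 1.58) of kept PHDTiEC barcodes, with overlapping intervals. Among *Ptprc*-positive barcodes the Ace side was 1.74% and 0.793% and the Ccr2 side 1.99% and 2.48%. With the division at a share of 0.3 the Ace side held 89 and 47 barcodes, and at 0.7 it held 68 and 36, so the lower number in PHDTiEC was there at each of the 3 limits. Ace-side barcodes had first passed the rule's limits on *Ccr2*, *Ly6c2*, *Plac8*, *Chil3* and *Lyz2* UMIs. Patrolling-type barcodes that did not pass them are not counted in these shares. Median depths on the Ace side were 5725 UMIs in Cre- and 4157 UMIs in PHDTiEC. Whether depth affected the shares of the sides was not tested. With at least 8 monocyte UMIs the Ace side was 0.673% and 0.271% of kept barcodes.

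**Figure D3:**
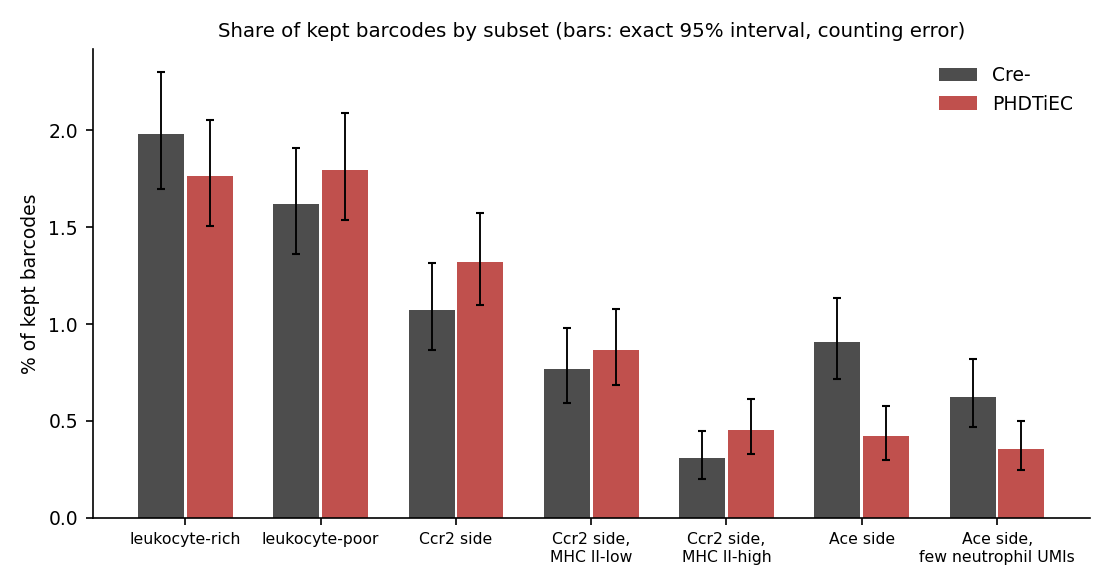
Share of kept barcodes in each library for the leukocyte-rich monocytes and their subsets, with bars for the exact 95% interval of counting error. The Ace side stands at 0.909% in Cre- and 0.422% in PHDTiEC with intervals that do not overlap, while those of the Ace side with few neutrophil UMIs (0.626% and 0.357%) and of the Ccr2 side (1.07% and 1.32%) overlap.

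Sums over all leukocyte-rich barcodes followed that balance. Here and below, a gene was compared when it had at least 20 UMIs over both libraries, and a difference is the log2 ratio of CPM, PHDTiEC over Cre-. Of 7294 genes compared, 2.99% were at least 2-fold higher in PHDTiEC and 3.11% at least 2-fold lower, with a median log2 ratio of -0.02. Of 12 patrolling monocyte genes, 5 were at least 2-fold lower and none at least 2-fold higher, with a median of -0.85. *Ace* stood at 347 CPM in Cre- and 149 CPM in PHDTiEC (log2 ratio -1.22, interval -1.50 to -0.95), *Treml4*, a receptor that binds dying cells, at 247 and 86.2 CPM (-1.52, -1.88 to -1.17), and *Adgre4*, an adhesion receptor, at 396 and 171 CPM (-1.22, -1.48 to -0.96). *Ccr2* stood at 600.1 and 1122 CPM (0.90, 0.76 to 1.04). Since the makeup differed, the sides are given separately from here on.

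The Ccr2 side was chosen on genes of classical monocytes, among them *Ccr2*, *Ly6c2* and *Chil3*, and with *Plac8* and *Lyz2* of the rule their levels there are a description. The sums held 599342 UMIs in Cre- and 873986 UMIs in PHDTiEC, at median depths of 6226 and 6553.5 UMIs per barcode. Of 6228 genes compared, 4.70% were at least 2-fold higher in PHDTiEC and 1.59% at least 2-fold lower, with a median of 0.05. Of 20 classical monocyte genes none was 2-fold apart in either direction, and their median was -0.03. *Ly6c2*, the gene of the classical surface antigen (chromosome 15, 75108158 to 75111970, minus strand, mm10), stood at 631 CPM in Cre- and 622 CPM in PHDTiEC (log2 ratio -0.02, interval -0.21 to 0.17). *F13a1* stood at 359 and 388 CPM (0.11, -0.14 to 0.37). For both genes the interval of the ratio included 0.

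Other genes of the list lay apart by less than 2-fold. *Ccr2*, the receptor for CCL2 (chromosome 9, 124101950 to 124113557, plus strand), stood at 983 CPM in Cre- and 1338 CPM in PHDTiEC (0.44, 0.30 to 0.59). After each barcode of at least 2000 UMIs was thinned to 2000 UMIs, 77.5% and 84.3% of the barcodes had a *Ccr2* UMI (91.2% and 95.9% unthinned), against 0.9% and 0.5% of thinned proximal tubule barcodes, which should lack it. *Chil3*, a chitinase-like secreted protein of myeloid cells (chromosome 3, 106147554 to 106167564, minus strand), was lower, with 1810.3 and 1460.0 CPM (-0.31, -0.43 to -0.19), as was *Plac8*, with 2985 and 2279 CPM (-0.39, -0.48 to -0.30). Thinned, 71.9% and 62.8% of barcodes had a *Chil3* UMI. *Cd14*, the coreceptor for bacterial lipopolysaccharide, stood at 756 and 1035 CPM (0.45, 0.29 to 0.62), and *Fcgr1*, the high-affinity receptor for immunoglobulin G, at 71.7 and 126 CPM (0.81, 0.29 to 1.35). *Cd14* and *Fcgr1*, which the rule did not use, were higher in the PHDTiEC library, with intervals that did not reach 0.

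The secreted protein genes *Hp* and *C3* were lower in PHDTiEC. *Hp*, which encodes the haemoglobin-binding protein haptoglobin (chromosome 8, 109575128 to 109579172, minus strand), stood at 1029 CPM from 617 UMIs in 75 Cre- barcodes and at 609 CPM from 532 UMIs in 84 PHDTiEC barcodes (-0.76, -0.93 to -0.59). Complement component *C3* (chromosome 17, 57203970 to 57228136, minus strand) stood at 259 and 120.1 CPM (-1.11, -1.48 to -0.74). No barcode gave more than 6% of the UMIs of either gene, and proximal tubule barcodes held 0.533 and 0.225 CPM of *Hp* but 924 and 680 CPM of *C3*. With the free RNA profile subtracted the log2 ratios were -0.76 for *Hp* and -1.15 for *C3*. The calcium-binding protein gene *S100a4* was lower as well, with 3374 and 2413 CPM (-0.48, -0.57 to -0.39).

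Of 18 genes that accompany the change from monocyte to macrophage, 13 were compared on the Ccr2 side. All 13 had a ratio above 0, as had 3450 of all 6228 genes, and for 9 of them the interval lay above 0. At least 2-fold higher were 3 and 2-fold lower none, and their median was 0.74 against 0.05 over all genes. *Apoe*, the lipid carrier apolipoprotein E (chromosome 7, 19696109 to 19699188, minus strand), stood at 2059 CPM in Cre- and 3526 CPM in PHDTiEC (0.78, 0.68 to 0.87). The lysosomal protease gene *Ctsl* stood at 102 and 200.2 CPM (0.98, 0.55 to 1.42), *Ctsd*, another cathepsin, at 185 and 291 CPM (0.65, 0.32 to 0.99), and *Lgmn*, the lysosomal protease legumain, at 118 and 198 CPM (0.74, 0.33 to 1.16). The macrophage antigen gene *Cd68* stood at 290.3 and 292 CPM (0.01, -0.28 to 0.29). These lysosomal protease genes and *Apoe* therefore lay further apart than *Cd68*.

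Most of these genes were abundant outside leukocytes too. Proximal tubule barcodes held 1310.5 CPM of *Apoe* in Cre- and 1698 CPM in PHDTiEC, and barcodes of 1 to 100 UMIs, which stand for free RNA, held 7575 and 9559 CPM. Thinned, 57.3% and 76.0% of Ccr2-side barcodes had an *Apoe* UMI, below the 77.4% and 88.9% of proximal tubule barcodes, and these shares are read as background. The estimated share of free RNA was 5.40% in the Ccr2 side of Cre- and 5.07% in that of PHDTiEC, and with that profile subtracted the median of the list was 0.88. It was 0.38 when barcodes carrying markers of a non-myeloid cell type were left out, and 0.59 when the barcode richest in each gene was left out. The median stayed above 0 in each case. With the profile subtracted *Apoe* had 0.88, *Ctsd* 0.96 and *Ctsl* 1.55.

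The same list differed less in other myeloid barcodes. In 1632 Cre- and 1708 PHDTiEC C1q-high macrophages, where 1.15% of 12274 genes were at least 2-fold higher and 1.52% at least 2-fold lower, its median was 0.25 over 16 genes, against 0.03 over all genes. *Apoe* stood there at 34399 and 42917 CPM, over 10 times the level of the Ccr2 side. On the Ace side the median of the list was -0.03 over 10 genes. In Ace-side barcodes with few neutrophil UMIs the median of the list was 0.17 over 9 genes. The difference between these medians was not tested.

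Oxygen-related genes were mixed on the Ccr2 side. *Hif1a*, the oxygen-regulated subunit of hypoxia-inducible factor, stood at 130.1 CPM in 43 Cre- barcodes and 217 CPM in 79 PHDTiEC barcodes (0.74, 0.35 to 1.14), and *Hk2*, a hexokinase that starts glycolysis, at 73.4 and 134 CPM (0.87, 0.36 to 1.40). Thinned, 12.4% and 24.0% of barcodes had an *Hk2* UMI, against 3.7% and 3.3% of proximal tubule barcodes. The rest of these pathways did not follow. Of 16 glycolysis genes compared none was 2-fold apart, with a median of 0.05, and of 14 other HIF target genes none was 2-fold apart, with a median of 0.00. *Ldha*, lactate dehydrogenase A, stood at 305 and 294 CPM (-0.05, -0.33 to 0.23) and *Pgk1*, a glycolytic kinase, at 200.2 and 193 CPM (-0.05, -0.40 to 0.30).

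The floxed genes were sparse in the monocytes. In all leukocyte-rich barcodes *Egln1* had 39 UMIs in Cre- and 33 in PHDTiEC, *Egln2* had 45 and 37, and *Egln3* had 11 and 4. On the Ccr2 side 9.0% and 6.6% of thinned barcodes had an *Egln1* UMI, close to the 8.0% and 6.1% of proximal tubule barcodes, and for *Egln2* the shares were 7.9% and 9.1% against 8.8% and 8.4%. These counts cannot show a loss in the endothelium, and a 3′ count does not show whether a floxed exon was removed.

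Inflammatory genes differed in both directions on the Ccr2 side. *Cxcl2*, a chemokine that draws neutrophils (chromosome 5, 90903871 to 90905938, plus strand), stood at 435 CPM in 27 Cre- barcodes and 934 CPM in 48 PHDTiEC barcodes (1.10, 0.90 to 1.31). The richest barcode gave 30.3% and 15.3% of these UMIs, and thinned, 22.5% and 29.8% of barcodes had a *Cxcl2* UMI against 10.3% and 6.5% of proximal tubule barcodes. The 10 neutrophil markers were higher in sum too, with 170.2 CPM in Cre- and 326 CPM in PHDTiEC on the Ccr2 side. Their median was 1.08 over the 4 compared, 2 of them at least 2-fold higher. *Ly6g*, *Camp*, *Ngp* and *Ltf* were at 0 in both libraries. Neutrophils themselves held 14566 and 15173 CPM of *Cxcl2*. In the 79 and 103 Ccr2-side barcodes with fewer than 3 neutrophil UMIs *Cxcl2* stood at 452 and 714 CPM (0.66, 0.44 to 0.89), still higher in PHDTiEC. *Il1b*, which encodes interleukin-1β, stood at 2276 and 2128 CPM (-0.10, -0.20 to 0.01), and was seen in 71.9% and 71.9% of thinned barcodes. *Nfkb1*, a subunit of the transcription factor NF-κB, was lower, with 190.2 and 126 CPM (-0.60, -0.99 to -0.20), as were *Sod2*, the mitochondrial superoxide dismutase (229 and 165 CPM, -0.47, -0.82 to -0.12), and *Rel* (310.3 and 223 CPM, -0.48, -0.77 to -0.18). Of 21 NF-κB and cytokine genes compared, 1 was at least 2-fold lower and none 2-fold higher, with a median of -0.33; the 1 gene was *Il1rn*, the interleukin-1 receptor antagonist, of which 1 Cre- barcode gave 40.2% of the UMIs.

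Among the other chemokine ligands, *Ccl6* had 874 and 1079 CPM in 81 and 112 barcodes (0.30, 0.15 to 0.46), more carriers than *Cxcl2*, and *Ccl9* stood at 486 and 457 CPM (-0.09, -0.31 to 0.13). *Ccl4* stood at 157 and 262 CPM in 27 and 33 barcodes (0.74, 0.39 to 1.10). *Ccl2*, the ligand of CCR2, stood at 135 and 101 CPM in 23 and 26 barcodes (-0.42, -0.88 to 0.03). The list had a median of 0.61 over 10 genes, 2 at least 2-fold higher and 1 at least 2-fold lower. That median was 0.15 when the richest barcode of each gene was left out: 98.4% of 126 *Cxcl9* UMIs in PHDTiEC came from 1 barcode, and *Ccl22* had 44 UMIs from 4 Cre- barcodes and 0 in PHDTiEC.

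Beyond the lists, the genes with the highest ratio on the Ccr2 side that met the conditions on UMIs and spread over barcodes were led by *Tle4*, a transcriptional corepressor, with 38.4 CPM in 21 Cre- barcodes and 117 CPM in 59 PHDTiEC barcodes (1.60, 0.94 to 2.33). *Cbx3*, a chromatin protein, stood at 55.1 and 117 CPM (1.08, 0.50 to 1.70) and *Cd84*, a receptor of the SLAM family, at 53.4 and 106 CPM (0.99, 0.40 to 1.62). The lowest were *AY036118*, *Tppp3* and *Herpud1*, a gene of the endoplasmic reticulum stress response. *AY036118* overlaps the ribosomal RNA locus and stood at 711 and 339.8 CPM (-1.06, -1.28 to -0.85), beside a share of ribosomal RNA-associated transcripts of 0.808% in Cre- and 0.440% in PHDTiEC. *F10*, coagulation factor X, stood at 169 and 89.2 CPM (-0.92, -1.36 to -0.48). The transcription factor *Klf2* was lower with 521 and 297 CPM (-0.81, -1.05 to -0.57), while the immediate early genes *Fos* (1109.6 and 1499 CPM, 0.43, 0.30 to 0.57) and *Jun* (270.3 and 419.9 CPM, 0.64, 0.36 to 0.91), which tissue dissociation can induce, were higher. The immediate early list as a whole was mixed: of 18 genes, 7 had an interval above 0 and 4 below 0, with a median of 0.14.

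The Ccr2 side itself held cells with and without major histocompatibility complex (MHC) class II transcripts. The sum of *H2-Aa*, *H2-Ab1* and *H2-Eb1* was 0 in 28 Cre- and 43 PHDTiEC barcodes and at least 64 per 10000 UMIs in 20 and 38, with 6 and 5 between 16 and 64. At a limit of 20 per 10000, MHC II-high barcodes numbered 26 and 42, which is 28.6% (19.6 to 39.0) and 34.4% (26.1 to 43.6) of the Ccr2 side, and 0.307% (0.201 to 0.450) and 0.455% (0.328 to 0.614) of kept barcodes. The intervals overlapped. *Ly6c2* and *H2-Aa* had a Spearman rho of -0.40 over 91 Cre- cells and -0.42 over 122 PHDTiEC cells.

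MHC II-high barcodes carried less of the classical genes and more genes of antigen-presenting cells. *Ly6c2* stood at 893 CPM in the MHC II-low and 151 CPM in the MHC II-high barcodes of Cre-, and at 882 and 215 CPM in PHDTiEC, and *Chil3* at 2655 and 264 CPM and at 2158 and 365 CPM. *Cd209a*, a lectin of dendritic cells that arise from or resemble monocytes, stood at 0 and 274 CPM in Cre- and at 1.87 and 318 CPM in PHDTiEC, in 9 and 10 of the MHC II-high barcodes. *Ccl17*, a chemokine of dendritic cells, came from 4 barcodes in each library. *Ccr2* remained in both, with 1071 and 822 CPM in Cre- and 1431 and 1191 CPM in PHDTiEC. Since *Flt3*, which marks dendritic cells, was required to be 0 and is sparse, monocyte-derived and dendritic cells cannot be told apart among these 68 barcodes.

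Several differences of the Ccr2 side held within these groups and others did not. Among MHC II-low barcodes 5.81% of 4990 genes were at least 2-fold higher in PHDTiEC and 1.86% at least 2-fold lower, and among MHC II-high barcodes 6.71% and 2.67% of 3369. *Apoe* had a log2 ratio of 0.55 (0.41 to 0.68) in MHC II-low and 0.92 (0.78 to 1.06) in MHC II-high barcodes, *Hif1a* 0.71 (0.22 to 1.22) and 0.78 (0.14 to 1.46), and *Hp* -0.66 (-0.84 to -0.49) and -1.01 (-1.58 to -0.43). *Hk2*, in contrast, had 0.22 (-0.42 to 0.87) in MHC II-low barcodes and 2.08 (1.06 to 3.27) in MHC II-high ones, where 2 Cre- barcodes held its 9 UMIs. *Chil3* was lower in MHC II-low (-0.30, -0.42 to -0.18) and stood at 0.46 (0.00 to 0.95) in MHC II-high barcodes. *C3* had -1.14 (-1.54 to -0.75) and -0.40 (-1.51 to 0.73). The macrophage maturation list had a median of 0.45 over 12 genes in MHC II-low and 0.84 over 12 genes in MHC II-high barcodes. The NF-κB and cytokine list had -0.19 over 19 genes in MHC II-low and 0.06 over 20 genes in MHC II-high barcodes, so its lower median on the Ccr2 side was not seen in the MHC II-high ones.

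**Figure D4:**
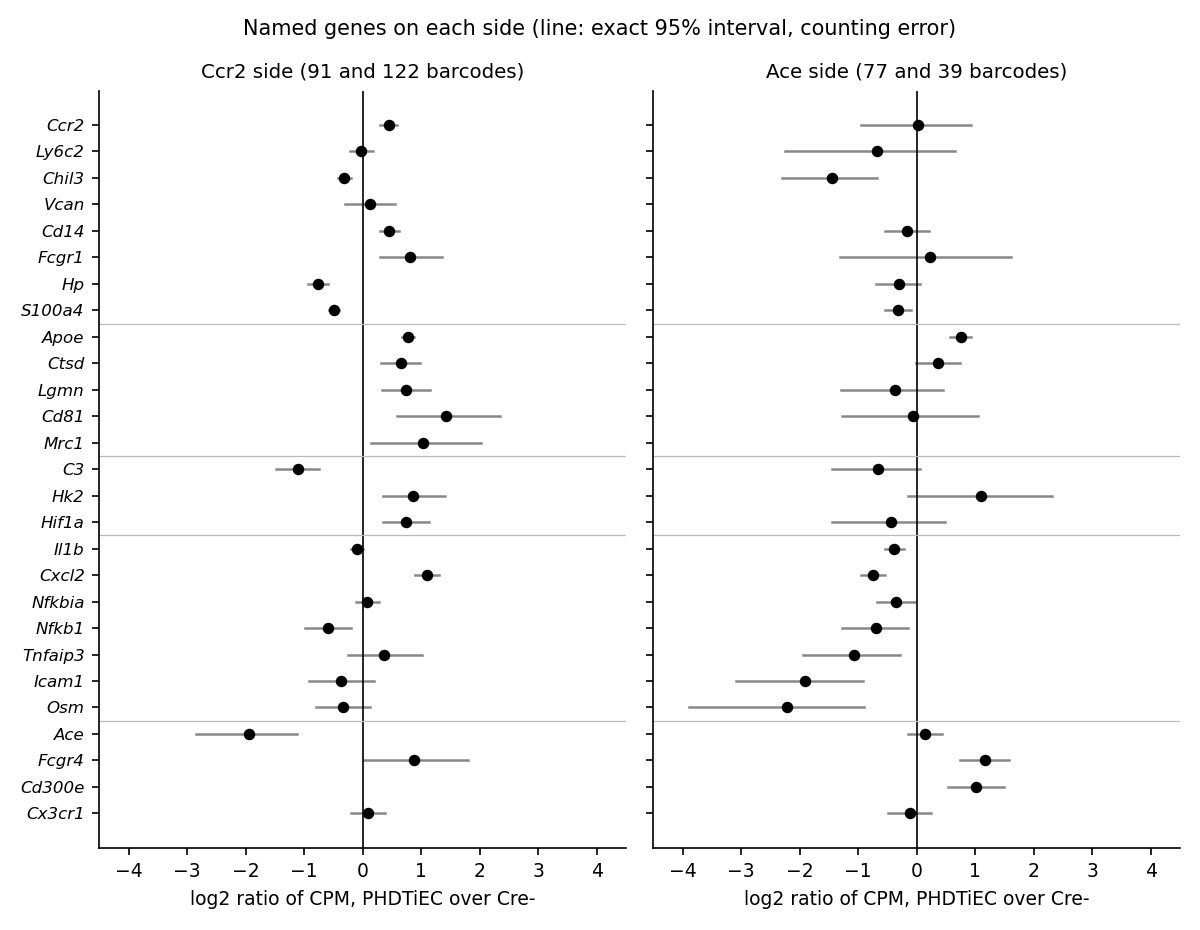
Log2 ratio of CPM, PHDTiEC over Cre-, of named genes on the Ccr2 side and on the Ace side, with a line for the exact 95% interval of counting error. *Apoe* lies above 0 on both sides (0.78 and 0.75), while *Cxcl2* lies above 0 on the Ccr2 side (1.10) and below 0 on the Ace side (-0.74). Of the PHDTiEC *Cxcl2* UMIs on the Ace side, 50.4% came from 1 barcode.

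On the Ace side, which was chosen on genes of patrolling monocytes, the list of patrolling monocyte genes had a median ratio near 0. Fewer such barcodes were present in PHDTiEC. The sums held 443796 UMIs in Cre- and 177072 UMIs in PHDTiEC, at median depths of 5725 and 4157 UMIs. Of 4276 genes compared 3.48% were at least 2-fold higher in PHDTiEC and 5.89% at least 2-fold lower, with a median of 0.00. The 12 patrolling monocyte genes had a median of 0.02, with 1 at least 2-fold higher and none 2-fold lower. *Ace* (chromosome 11, 105967945 to 105989964, plus strand) stood at 714 CPM in Cre- and 791 CPM in PHDTiEC (0.15, -0.15 to 0.44), *Cx3cr1*, the fractalkine receptor, at 536 and 497 CPM (-0.11, -0.48 to 0.25), and *Nr4a1* at 1485 and 1502 CPM (0.02, -0.19 to 0.22). *Treml4* was lower, with 507 and 356 CPM (-0.51, -0.94 to -0.10). *Ace*, *Treml4*, *Adgre4* and *Spn* chose this side, so their levels are a description, and the median of the patrolling monocyte list is read in the same way.

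Several receptors and enzymes were higher on the PHDTiEC Ace side. *Cd300e* stood at 187 CPM in 41 Cre- barcodes and 378 CPM in 26 PHDTiEC barcodes (1.02, 0.53 to 1.499), and *Fcgr4*, an activating receptor for immunoglobulin G, at 232 and 519.6 CPM in 47 and 30 barcodes (1.16, 0.74 to 1.58). *Hpgd*, which breaks down prostaglandins, stood at 203 and 525 CPM (1.37, 0.94 to 1.81), and *Tent5a*, a poly(A) polymerase gene, at 187 and 519.6 CPM (1.47, 1.03 to 1.92). *Apoe* was higher here too, with 1449 and 2439.7 CPM (0.75, 0.57 to 0.93), and *Ly6e*, an interferon-induced surface protein, stood at 1474 and 2179.9 CPM (0.56, 0.38 to 0.75). Of 15 interferon-induced genes compared 3 were at least 2-fold higher and none 2-fold lower, with a median of 0.46, and 75.6% of the 45 PHDTiEC UMIs of one of them, *Bst2*, came from 1 barcode. In Ace-side barcodes with fewer than 3 neutrophil UMIs that median was 0.14 over 10 genes, 2 at least 2-fold higher and 1 at least 2-fold lower. In C1q-high macrophages the list had a median of 0.32 over 37 genes, so a median above 0 was not particular to the Ace side.

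NF-κB and cytokine genes were lower on the PHDTiEC Ace side. Of 22 compared, 9 were at least 2-fold lower and none 2-fold higher, and their median was -0.72. *Ptgs2*, the inducible prostaglandin synthase, had 114 UMIs in 19 Cre- barcodes and 6 UMIs in 3 PHDTiEC barcodes, or 257 and 33.9 CPM (-2.92, -4.40 to -1.76). *Icam1*, an adhesion molecule, stood at 192 and 50.8 CPM (-1.91, -3.09 to -0.92), *Tnfaip3*, an inhibitor of NF-κB signalling, at 189 and 90.4 CPM (-1.07, -1.94 to -0.28), and *Sod2* at 309 and 164 CPM (-0.91, -1.55 to -0.33). *Il1b* was less far apart, with 3001 and 2304 CPM (-0.38, -0.54 to -0.22). *Cxcl2* stood at 2233 and 1333 CPM (-0.74, -0.96 to -0.54), with 50.4% of the PHDTiEC UMIs from 1 barcode. *Nfkbiz*, in contrast, was higher, with 356 and 519.6 CPM (0.55, 0.16 to 0.93).

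Neutrophil transcripts moved with these genes. The sum of 10 neutrophil markers stood at 1568 CPM on the Ace side of Cre- and 609.9 CPM on that of PHDTiEC, and 24 of 77 and 6 of 39 barcodes carried at least 3 such UMIs, while *Camp* and *Ngp*, markers of immature neutrophils, were at 0 in both libraries. In the 53 and 33 barcodes with fewer, 3.60% of 3251 genes were at least 2-fold higher and 5.11% at least 2-fold lower in PHDTiEC, and 4 of 19 NF-κB and cytokine genes were at least 2-fold lower and none higher, with a median of -0.41. There *Ptgs2* had only 6 and 1 UMIs, *Ier3*, an early stress-response gene, had a ratio of -0.41 (-1.46 to 0.56), against -1.28 (-1.82 to -0.79) on the whole Ace side, and *Tnfaip3* had -0.84 (-1.90 to 0.12). *Nfkb1* (-0.81, -1.46 to -0.20), *Sod2* (-0.81, -1.55 to -0.12), *Icam1* (-1.44, -3.18 to -0.04) and *Il1b* (-0.34, -0.57 to -0.11) were still lower. *Cd300e* (0.99, 0.43 to 1.55) and *Fcgr4* (1.08, 0.58 to 1.58) were as high in PHDTiEC as on the whole Ace side. *Malat1*, a nuclear RNA, stood at 18139.5 and 29396 CPM in these barcodes.

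**Figure D5:**
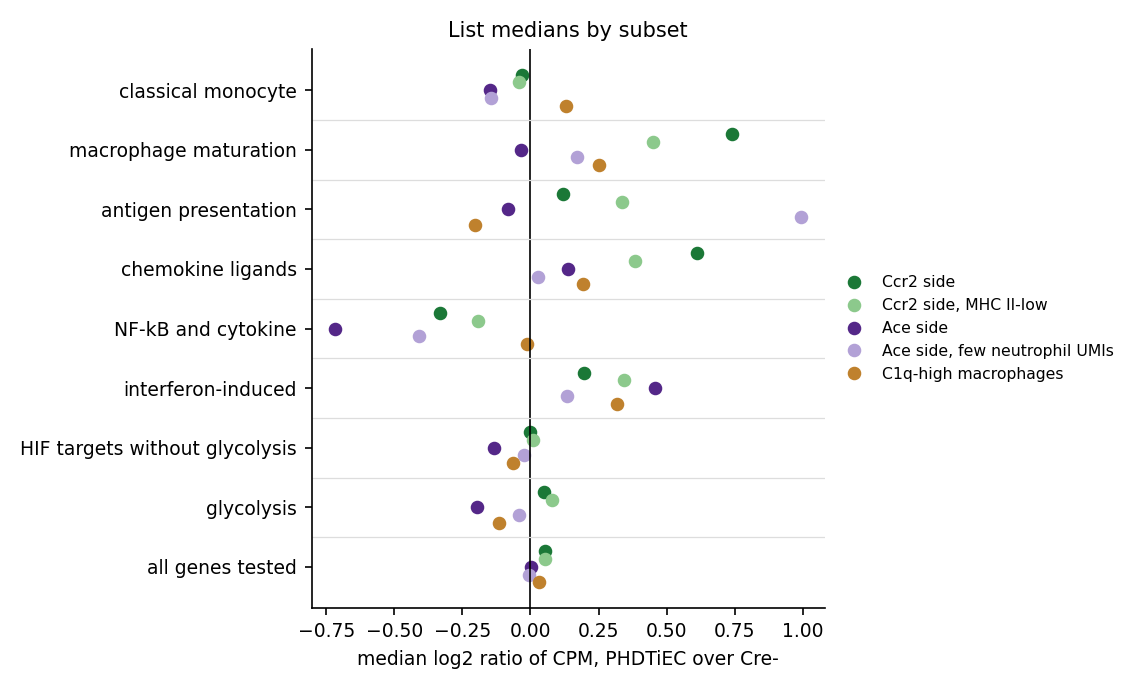
Median log2 ratio of CPM, PHDTiEC over Cre-, of each gene list in subsets of the monocytes and in C1q-high macrophages. The macrophage maturation list stands at 0.74 on the Ccr2 side, and the NF-κB and cytokine list at -0.33 on the Ccr2 side and -0.72 on the Ace side.

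The remaining lists are given beside the median of all genes, 0.05 on the Ccr2 side and 0.00 on the Ace side. On the Ccr2 side the patrolling monocyte genes had -0.57 over 9 genes. That side was chosen for a low share of *Ace*, *Treml4*, *Adgre4* and *Spn*, so this median is a description. The cell cycle genes had 3.18 over 6 genes, 4 of them at least 2-fold higher, and 1 PHDTiEC barcode gave 215 of the 378 cell cycle UMIs of the leukocyte-rich barcodes of that library. Antigen presentation genes had a median of 0.12 over 10 genes on the Ccr2 side, where *H2-Aa* stood at 2356 and 2743 CPM (0.22, 0.12 to 0.32) and the invariant chain gene *Cd74* at 6404 and 7296 CPM (0.19, 0.13 to 0.25). Interferon-induced genes had a median of 0.20 over 31 genes there, none 2-fold apart; *Ifi204*, a DNA sensor, stood at 145 and 216 CPM (0.58, 0.20 to 0.96) and *Irf7*, a regulator of interferon genes, at 140.2 and 84.7 CPM (-0.73, -1.20 to -0.26). Receptors and adhesion genes had 0.13 over 17 genes, pattern recognition and Fc receptors 0.11 over 14, lipid-associated macrophage genes 0.18 over 12, oxidase and antioxidant genes -0.07 over 14, complement genes 0.04 over 7, iron handling genes 0.00 over 5, matrix and growth factor genes 0.04 over 16, monocyte growth signals 0.00 over 11, oxygen sensing genes 0.01 over 6, and immediate early genes 0.14 over 18. On the Ace side iron handling genes had -0.46 over 5 genes and glycolysis genes -0.20 over 14. *Fth1*, ferritin heavy chain, stood at 8822 and 5319.9 CPM there (-0.73, -0.83 to -0.63).

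One gene of the interferon-inducible family on chromosome 1, *Ifi202b* (173962568 to 173982744, minus strand), was nearly absent from the PHDTiEC library. It had 55 UMIs in 37 leukocyte-rich Cre- barcodes and 0 in PHDTiEC, a log2 ratio of -4.21 or below when the 0 is set to 3 counts. In C1q-high macrophages it had 605 and 1 UMIs, and barcodes of 1 to 100 UMIs held 8.08 and 0.164 CPM, so the difference was not particular to the monocytes. The labels do not give the strain background of the mice, and a difference between the mice cannot be told apart from one between the genotypes.

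Compared with C1q-high macrophages of the same library, the leukocyte-rich monocytes were set apart by *Vcan* (74.8 against 0.727 CPM in Cre- and 117 against 0.765 CPM in PHDTiEC), *Hp* (832 against 8.54 and 588 against 4.59 CPM) and the neutrophil and monocyte surface gene *Cd177* (29.7 against 0.182 and 65.4 against 0.255 CPM). *Apoe* was lower in the monocytes, with 1799 against 34399 CPM and 3333 against 42917 CPM, as were *Cd81*, a tetraspanin (39.3 against 657 and 66.3 against 527 CPM), and the selenium carrier gene *Selenop* (173 against 1628 and 248 against 1887 CPM). *Ccr2* was not confined to the monocytes, since C1q-high macrophages held 587 and 493 CPM of it. That was close to its level in leukocyte-rich barcodes in Cre- and well below it in PHDTiEC. The gates use the same cells, so these are descriptions.

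Markers of other cell types in the leukocyte-rich barcodes included those of neutrophils, with 765 CPM in Cre- and 380 CPM in PHDTiEC (798 and 401 UMIs in 98 and 84 barcodes), and of dendritic cells, with 159 and 245 CPM (*Flt3* at 0, as the rule requires). None of 4 natural killer cell genes had a UMI, platelet genes had 0 and 1 UMI, mast cell and basophil genes 1 and 0, and T cell genes 37 and 16 UMIs, most from 1 barcode in each library. B cell genes had 121 and 136 UMIs with *Ms4a1* at 0. Proximal tubule genes summed to 61.4 and 52.1 CPM and endothelial genes to 24.9 and 16.1 CPM. Some PHDTiEC sums came from single barcodes: 195 of 237 thick limb and collecting duct UMIs, 423 of 433 erythroid UMIs and 215 of 378 cell cycle UMIs each came from 1 barcode.

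In the sums over all 634 barcodes of the rule, which the leukocyte-poor ones dominate, 1.56% of 13834 genes were at least 2-fold higher in PHDTiEC and 2.83% at least 2-fold lower. Of 12 patrolling monocyte genes 6 were at least 2-fold lower, with a median of -1.01, while the medians of the classical monocyte genes (-0.02 over 20) and of the macrophage maturation genes (-0.01 over 14) were near 0. In the leukocyte-poor barcodes alone 1.48% of 13484 genes were at least 2-fold higher and 2.65% at least 2-fold lower. The share of free RNA was estimated from the proximal tubule marker UMIs of a set. Over all barcodes of the rule the estimate was 63.4% in Cre- and 38.1% in PHDTiEC, against 5.23% and 4.91% in the leukocyte-rich ones. The leukocyte-poor barcodes held 6205 of 6269 such UMIs in Cre- and 3954 of 4009 in PHDTiEC. Over all barcodes the estimate therefore cannot tell free RNA from the content of these barcodes.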

How the data were processed

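Injured kidneys were dissociated and sequenced with the 10X Genomics Chromium 3′ v3.1 kit. Per the labels, the authors aligned reads to mm10 with Cell Ranger (major version 4 per the file headers), and deposited raw UMI counts for 32285 features and every barcode, with no filter or normalization. Barcodes with 500 to 100000 UMIs, at least 200 genes, at most 50% mitochondrial UMIs and a complexity (log10 of the gene number over log10 of the UMI number) no lower than 0.8 were kept; no doublet caller was run, and the cluster rich in ribosomal RNA-associated transcripts that the study excluded was not removed. Samples were grouped by the genotype in the labels. The protocol also names a cell hashing library, which was not used here.

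UMI counts were summed over the barcodes of a group and divided by their total (CPM). Each ratio has an exact interval (binomial, Clopper-Pearson) from how a gene's counts divided between the libraries, and a gene at 0 in 1 library was set to 3 counts as a bound. With 1 library per genotype no count model was fitted between genotypes, and p-values were not computed. Genes were named when they belonged to the rule or to 20 lists, were floxed, or were among the 12 highest or 12 lowest ratios with at least 100 UMIs, seen in at least 10% of the barcodes of the higher library and with at most 25% of its UMIs from 1 barcode, and likewise against other myeloid groups; mitochondrial, ribosomal protein, haemoglobin and sex-linked genes were left out, and some genes that met the rule are not reported here. The leading genes of the leukocyte-poor barcodes, and *Ifi202b* and *Malat1* outside the groups in which they met this rule, were chosen after their values were seen. The members and lists were chosen with earlier results of these data known. The leukocyte and epithelial panels, the sides, the MHC II limit and the neutrophil limit on each side were chosen after the values had been seen. Gene positions are from GENCODE (mm10). Scripts ran in Python 3.11.15 with numpy 2.4.6, scipy 1.17.1 and pandas 2.3.3, and in R 4.3.3 with edgeR 4.0.16, used only for its TMM scaling factors as an alternative. The ratio and its interval were run on counts simulated with counting error alone, which the interval assumes. That run does not cover how unevenly UMIs lie between cells or mice. Alternatives changed the limits on barcodes and genes, the scaling, free RNA and single barcodes.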

Additional observations from a re-analysis of the deposited data

Results flagged for a closer look

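Some genes had ratios of PHDTiEC over Cre- that pointed in opposite directions in different groups of barcodes. With 1 library per genotype these differences were not tested. *Cxcl2* had a log2 ratio of 1.10 on the Ccr2 side (261 and 816 UMIs) and -0.74 on the Ace side (991 and 236 UMIs). The richest barcode gave 30.3% and 15.3% of these UMIs on the Ccr2 side and 11.6% and 50.4% on the Ace side. The 10 neutrophil markers summed to 170.2 and 326 CPM on the Ccr2 side and to 1568 and 609.9 CPM on the Ace side. How far neutrophil RNA set these directions was not tested. The lipase gene *Lpl* had 1.00 on the Ccr2 side (44 and 128 UMIs) and -2.67 on the Ace side (64 and 4 UMIs). *Mmp9*, a matrix metalloproteinase that neutrophils carry, had 3.63 on the Ccr2 side from 2 and 36 UMIs in 1 and 6 barcodes, -0.94 on the Ace side (72 and 15 UMIs), and -0.82 in C1q-high macrophages (58 and 35 UMIs). *Fpr2*, a formyl peptide receptor, had -1.13 on the Ccr2 side (39 and 26 UMIs) and -1.01 on the Ace side (96 and 19 UMIs), and 1.502 in C1q-high macrophages (118 and 357 UMIs in 86 and 222 barcodes).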

How the results depend on the processing

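Shares of barcodes, counts of 2-fold genes, and chosen list medians and gene ratios were recomputed under alternatives that changed 1 choice at a time. This covered all barcodes of the rule, the leukocyte-rich ones and each side. Other reported genes, lists and comparisons were not recomputed. No paired analysis was possible because each genotype has 1 library, and for the same reason no replicate was left out. The Ace side held a smaller share of kept barcodes in PHDTiEC than in Cre- in each alternative that recomputed it. Of 702 list medians under alternatives 681 moved by less than the median half-width of their genes' intervals, and of 2428 gene ratios 18 changed sign from a value whose interval left out 0. The gene minimums and barcode limits change how many genes or barcodes enter. Beyond that, the cause of the differences was not tested.

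With at least 8 monocyte UMIs the share of all barcodes of the rule was 2.88% in Cre- and 2.78% in PHDTiEC, that of leukocyte-rich ones 1.49% in PHDTiEC, and that of the Ace side 0.673% and 0.271%; the antigen presentation median of leukocyte-rich barcodes was 0.28 and the chemokine ligand median of the Ace side -0.42. Leaving out barcodes with markers of 1 non-myeloid type gave shares of 1.45% and 1.31% for all, 1.43% and 1.25% for leukocyte-rich, and 0.709% and 0.888% for the Ccr2 side. Over all barcodes of the rule it left 341 genes at least 2-fold higher and 249 at least 2-fold lower (216 and 392 otherwise), and on the Ccr2 side 188 higher (293 otherwise). The medians over all barcodes of the rule were then 0.16 for macrophage maturation, 0.40 for antigen presentation, 0.54 for interferon-induced and -0.24 for HIF targets, and *Lyz2* (0.0285), *Ctsl* (0.66) and *Ifitm3* (0.12) reversed, as did *Lyz2* (0.0018) and *Ifitm3* (0.0572) on the Ccr2 side.

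A limit of 30000 UMIs gave shares of 2.51% and 2.34%, 442 genes 2-fold higher, medians of 0.37 for macrophage maturation and 0.49 for antigen presentation, and *Lyz2* at 0.049 and *Ifitm3* at 0.0554. Kept barcodes thinned to 3000 UMIs gave shares of 2.24% and 1.98%, and *Ptprc*-positive barcodes as the denominator 5.32% and 4.96%. Means over cells gave 511 genes 2-fold higher over all barcodes of the rule, *Ctsl* at 0.14, and medians of -0.75 for patrolling monocyte, 0.24 for macrophage maturation, 0.41 for antigen presentation and 0.35 for chemokine ligand genes.

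Subtracting the free RNA profile from all barcodes of the rule, where it was estimated at 63.4% of UMIs in Cre- and 38.1% in PHDTiEC, gave 1192 genes higher and 990 lower, medians of -0.36 for classical monocyte, -1.76 for patrolling monocyte, -0.36 for macrophage maturation, -0.18 for antigen presentation and -0.83 for chemokine ligand genes, and reversed *Ly6c2* (-0.30), *Lyz2* (7.15), *Apoe* (-0.83), *Ctsl* (0.25), *Cxcl2* (7.88), *Il1b* (0.79) and *Osm* (0.90). On the sides, where it was estimated at 3.72% to 5.40%, no recomputed gene with an interval that left out 0 changed sign.

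A minimum of 50 UMIs per gene gave 87 higher and 182 lower over all barcodes of the rule, 60 and 67 in leukocyte-rich barcodes (218 and 227 otherwise), 68 and 21 on the Ccr2 side (293 and 99 otherwise) and 21 and 59 on the Ace side (149 and 252 otherwise). A minimum of 1 UMI gave 653 and 1193, 853 and 1142, 1181 and 807, and 1367 and 715, in the same order, and a chemokine ligand median of -0.26 on the Ace side. Leaving out the richest barcode of each gene gave a chemokine ligand median of 0.15 on the Ccr2 side. Among alternatives added after the data were seen, a leukocyte panel limit of 30 gave 406 genes lower in leukocyte-rich barcodes and 468 on the Ace side, and *Ctsd* at -0.0419 in leukocyte-rich barcodes. In MHC II-high barcodes the patrolling monocyte median was -0.14, and *Chil3* (0.46) and *Lyz2* (0.51) reversed. With few neutrophil UMIs 166 genes were lower on the Ace side and the antigen presentation median was 0.99.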
